A study of Rattus norvegicus with 2 samples.

Results

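Apoptosis is the programmed dismantling of a cell. In the mitochondrial route, BH3-only proteins sense stress and free the effectors BAX and BAK from survival proteins such as BCL2, the outer mitochondrial membrane is breached, and cytochrome c and APAF1 form the apoptosome that activates caspase-9. In the death receptor route, FAS ligand binds FAS, and the adaptor FADD recruits caspase-8, which the decoy protein encoded by Cflar holds back. Loss of smooth muscle cells from the media by apoptosis is a known feature of the wall of intracranial aneurysms. Many steps of both routes work on proteins that are already present, through cleavage, binding or a move to the mitochondrion, and a messenger RNA level does not report on them.

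A set of 36 regulators of apoptosis and caspases was followed here in rat intracranial arteries: effectors, survival proteins and BH3-only proteins of the BCL2 family, caspases, factors released from mitochondria, the FAS pathway, and genes of the p53 and growth arrest response. The members are a list of names. All 36 had at least 1 probe on the array, among 15159 genes that had one. Tp53inp1, listed as Trp53inp1, was matched through a synonym. The control RNA (1 array) is from walls of intracranial arteries of rats that had no treatment, and the lesion RNA (1 array) from aneurysms 3 weeks after their induction; the figures call the lesion array the aneurysm library. Both were hybridised in one colour. Strain, sex, age, the method of induction and whether an array holds 1 animal or several are not given in the labels. A single array per group leaves every difference without a replicate check, so none is tested and their number limits how precise any value is.

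Levels are given as multiples of the array's own 75th percentile of spot signal, which was 620.7 in the control and 801.2 in the lesion. They were compared between the arrays for the same probe and not between probes. The summed levels of marker lists are the exception: they add probes of different genes, and the brightest probes weigh most. Differences are log2 aneurysm minus control. The value after ± is the spot error, the spread of repeat spots within an array carried to the difference, which holds no variation between animals or labellings. By the scanner software's flag, both arrays held 32 of the 36 members well above background. Bid, Faslg and Bcl2l11 were so in the lesion alone, and their difference is a bound that here equals the measured difference. Fadd did not reach that flag on either. In bulk tissue, fewer cells of a type and less RNA per cell cannot be told apart.

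The tissue carried RNA of more than the vessel wall, and this differed between the libraries. All 5 smooth muscle markers and the 4 endothelial markers with a probe were detected in both libraries, with a median difference of 0.08 for each list; the endothelial one was -0.0022 with normexp background correction. The 8 hepatocyte markers with a value were all at least 2-fold lower in the lesion, with a median of -4.90. The 6 of them well above background on both arrays had a median of -5.01. Their summed level was 42.1 in the control and 8.42 in the lesion. Of these sums Ttr alone made up 21.2 and 7.93, and its difference of -1.42 was the smallest in the list. Tat and Cps1, enzymes of hepatocytes, were not well above background. The 5 oligodendrocyte markers were lower too (median -1.22, summed level 162.9 against 83.0), as were the 4 erythrocyte markers (median -0.86) and 3 pituitary markers (median -2.23). Mbp alone made up 153 and 78.8 of the oligodendrocyte sums. The 5 fibroblast markers were higher (median 0.55, summed level 54.7 against 71.6). Most members are expressed in many cell types, and the part of these tissue shares in their differences was not tested.

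The genes of this set lay close to equality between the libraries. Of the 32 members well above background on both arrays, 0 were at least 2-fold higher, where 0.455% of 11201 genes were, and 0 were at least 2-fold lower, where 2.11% were. At 1.5-fold, 1 of the 32 was higher (Gadd45g; 3.00% of all genes) and 0 were lower (6.22% of all genes). Gadd45g was under 1.5-fold with normexp on processed signals (0.53), with normexp on median signals (0.47) and with centring on detected probes (0.56), and just under it with quantile normalization (0.58). The median difference was 0.01 among these members and -0.0001 among all such genes. The median size of a difference, whatever its sign, was 0.15 among the members and 0.19 among all genes. With the 3 bounds included, 19 of 35 members lay above 0, against 50.2% of 11902 genes. Of these 35, Bid and Gadd45g were at least 1.5-fold higher (2 of 35, against 4.25% of genes), and 0 were at least 1.5-fold lower (8.43% of genes). The shares of higher members are near the background. The counts of 0 lower members stand beside small background shares, and with so few members they do not set the genes apart.

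**Figure D1:**
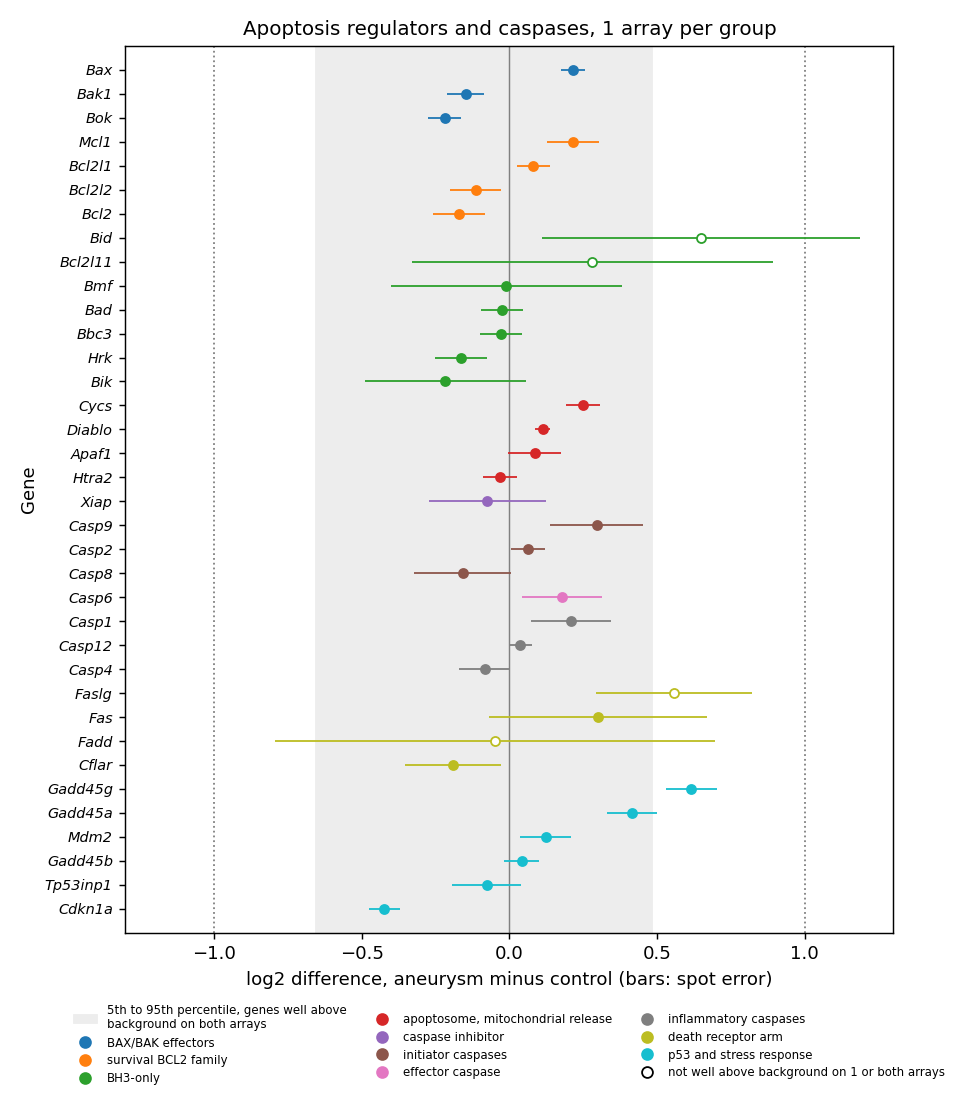
Log2 difference, aneurysm minus control, of the 36 members (points, coloured by role) with the spot error as bars; open points were not well above background on 1 or both arrays, the grey band is the 5th to 95th percentile of genes well above background on both arrays (-0.66 to 0.48), and dotted lines mark 2-fold. Among the filled points Gadd45g, at 0.62, lies beyond the band and Cdkn1a, at -0.42, is the lowest; with spike-in scaling all points move to the right by about 0.30 and those below 0, except Cdkn1a, turn positive.

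Repeat spots gave a measure of which differences exceeded the error within an array. Of 35 members, 7 were higher by over 2 spot errors (Bax, Cycs, Diablo, Faslg, Gadd45a, Gadd45g and Mcl1) against 21.0% of all genes. Lower by over 2 spot errors were 3 (Bak1, Bok and Cdkn1a), against 21.8% of all genes. Without the bounds, and so without Faslg, 6 of 32 were higher, against 21.9% of genes flagged on both arrays. In the same way 3 of 32 were lower, against 21.5%. Of 33 members with several spots on both arrays, 13 had every aneurysm spot above every control spot, where 34.8% of genes did, and 8 had every aneurysm spot below, where 33.2% did. Spots that do not overlap were thus the rule on these arrays, and such a gap marks a difference between 2 hybridisations. The scale between the arrays matters for the sign. With spike-in scaling the median of all genes moved to 0.30, and 15 of the 16 members that were lower turned higher, Cdkn1a being the exception at -0.12; relative to the median of all genes, 19 of 35 members were above it with either scaling. Signs below are relative to the bulk of genes in this sense.

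**Figure D2:**
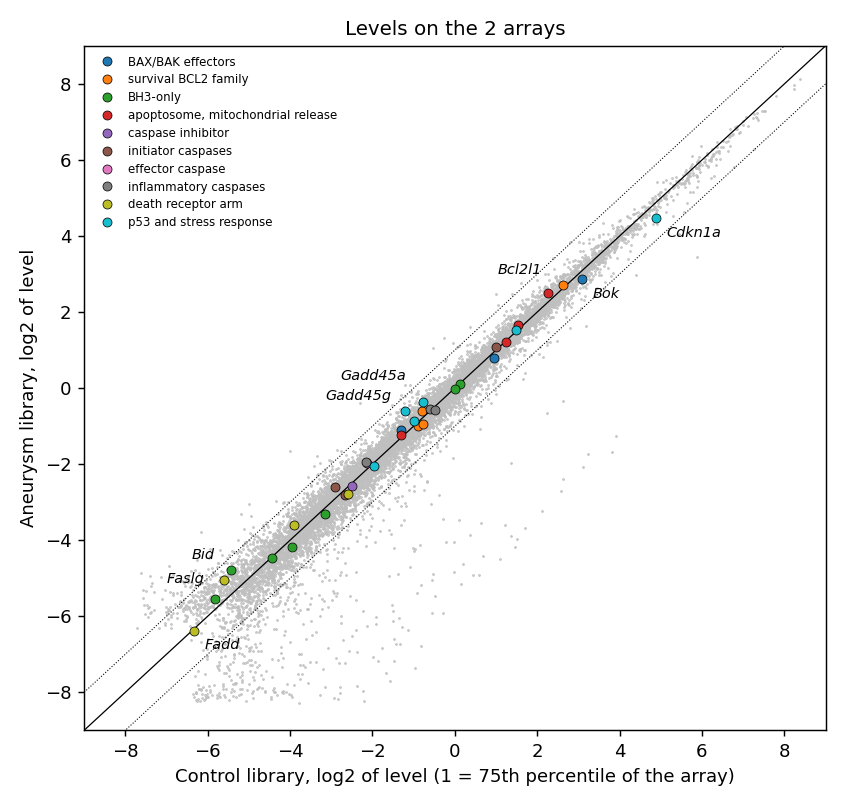
Level of each gene in the control (horizontal) and aneurysm library (vertical), as log2 of the multiple of the array's 75th percentile; grey points are 11902 genes, coloured points the members by role, the solid line equality and dotted lines 2-fold. The members follow the line of equality from Fadd at the dim end to Cdkn1a (29.6 in the control, 22.0 in the lesion), while the grey cloud below the line holds the genes far lower in the lesion.

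Leaving the bounds aside, the p53 and growth arrest genes held the members' largest differences in both directions. Gadd45a, Gadd45b and Gadd45g encode small stress proteins that bind the kinase MEKK4 and the cell cycle inhibitor p21. Gadd45g had spots at 0.430 and 0.430 in the control and at 0.654 and 0.663 in the lesion. Its mean was 0.430 in the control and 0.658 in the lesion, 1.53-fold higher (0.62 ± 0.09) with no overlap of spots, and it ranked 438th from the top of 11902 genes. Gadd45a had spots at 0.540 and 0.634 in the control and 0.745 and 0.816 in the lesion. Its difference was 0.41 ± 0.08, or 1.33-fold, again without overlap. Gadd45b, at 2.77 and 2.83 against 2.85 and 2.91, differed by 0.04 ± 0.06, less than its spot error. The family thus did not move as one on these arrays: the difference of Gadd45g exceeded that of Gadd45b by 0.57 ± 0.10, a quantity that no scaling between arrays alters by a constant shift and that was 0.40 at its lowest over the alternatives.

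Cdkn1a, which encodes p21, the inhibitor of cyclin-dependent kinases and a main target of p53, went the other way. Its brighter probe read 29.2 and 29.9 in the control and 21.6 and 22.5 in the lesion, so that the spots did not overlap. The difference was -0.42 ± 0.05, a 1.34-fold lower level in the lesion. A separate probe with 1 spot per array gave 3.78 against 3.13 (-0.27 ± 0.08). Cdkn1a ranked 1509th from the bottom of all genes, so many genes were further down. Gadd45g and Cdkn1a differed from each other in their change by 1.04 ± 0.10, and by 0.90 to 1.04 over the alternatives. The control library, where Cdkn1a was higher, is also the one with more hepatocyte, oligodendrocyte and erythrocyte RNA, whose medians stand above. The part of these in the Cdkn1a value was not tested.

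The other genes of this arm were near equality. Mdm2, the ubiquitin ligase that degrades p53, was at 0.505 in the control and 0.549 in the lesion on its brighter probe (0.12 ± 0.09) and at 0.175 and 0.164 on the other (-0.09 ± 0.14), so its probes differed in sign. Tp53inp1, a p53-induced nuclear protein, was at 0.257 and 0.244 (-0.08 ± 0.12, and 0.23 with spike-in scaling). Among 23 further p53 targets listed apart from the members, 18 had a value, 9 higher and 9 lower, with a median of 0.02 that ran from -0.03 to 0.28 over the alternatives. The 3 with the largest differences were Rrm2b, a ribonucleotide reductase subunit (-1.25 ± 0.66), Ckap2, a cytoskeleton protein that dividing cells also make (1.02 ± 0.25), and the polo-like kinase gene Plk2 (-0.83 ± 0.07). Beside Ckap2, the 3 cycling cell markers with a value were Cdk1 at 0.83 ± 0.05, Ccnb1 at 0.91 ± 0.38 and Birc5 at 0.10 ± 0.18. Their median of 0.83 was 0.23 with normexp on processed signals and 0.07 with normexp on median signals, and their part in the Ckap2 value was not tested. Thus 1 of 18 was at least 2-fold higher (0.882% of all genes) and 1 at least 2-fold lower (3.91% of all genes).

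**Figure D3:**
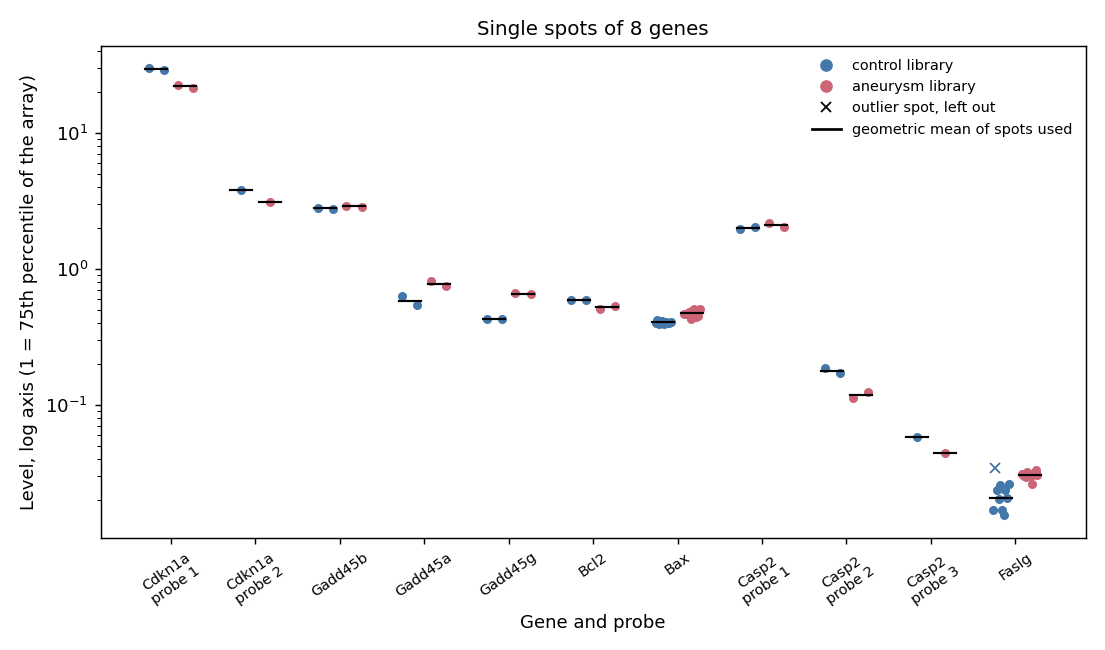
Level of every spot (points, log axis, 1 being the array's 75th percentile) of 8 members in the control (blue) and aneurysm library (red), with the geometric mean of the spots used as a bar; crosses are outlier spots that were left out, and probes of a gene are shown apart and not compared with each other. Gadd45a, Gadd45g, Bax and the used Faslg spots are higher in the lesion without overlap, Cdkn1a is lower on both probes, and the probes of Casp2 disagree.

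The sequences before the annotated starts of Gadd45a, Gadd45g and Cdkn1a are shown because these 3 genes had the largest differences, bounds aside. They are the 250 bases upstream of the RefSeq gene start in build GRCr8, written along the gene's strand. Capitals mark matches on either strand to any of 5 motifs. The TATA box was searched as TATAAA and the CCAAT box by the letters of its name. The GC box was searched as GGGCGG and the AP-1 motif as TGACTCA. The p53 half-site, whose letters allow alternatives, was searched by its usual consensus. The windows lie at chr4:97486800-97487049 (minus strand), chr17:13530352-13530601 (minus strand) and chr20:7150682-7150931 (plus strand). A gene with several starts may use another one in this tissue.
Gadd45a: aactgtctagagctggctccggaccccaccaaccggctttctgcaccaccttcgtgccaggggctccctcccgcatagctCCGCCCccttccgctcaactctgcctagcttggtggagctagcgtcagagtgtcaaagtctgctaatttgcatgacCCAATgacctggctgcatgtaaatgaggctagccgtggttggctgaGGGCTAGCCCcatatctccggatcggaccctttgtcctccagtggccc
Gadd45g: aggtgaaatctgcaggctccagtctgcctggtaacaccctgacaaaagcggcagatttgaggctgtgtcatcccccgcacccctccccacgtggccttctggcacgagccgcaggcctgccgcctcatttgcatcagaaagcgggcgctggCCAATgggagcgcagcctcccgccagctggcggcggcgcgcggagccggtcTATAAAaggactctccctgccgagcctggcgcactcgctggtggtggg
Cdkn1a: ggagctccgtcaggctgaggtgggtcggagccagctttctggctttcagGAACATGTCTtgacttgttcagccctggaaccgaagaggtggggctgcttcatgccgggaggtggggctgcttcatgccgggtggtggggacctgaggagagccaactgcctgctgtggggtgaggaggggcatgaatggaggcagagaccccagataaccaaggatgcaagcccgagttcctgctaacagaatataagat
Counting back from the start, with -1 as the last base before it, Gadd45a held a GC box at -170 to -165, a CCAAT box at -94 to -90 and a p53 half-site at -48 to -39. Gadd45g held a CCAAT box at -99 to -95 and a TATA box at -48 to -43. Cdkn1a held a p53 half-site at -201 to -192 and no match to the other motifs. No matches overlapped in these windows. A match is a description of letters, and the arrays measured no binding.

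Promoter windows were found for 27 of the 36 members. A GC box was present in 19 of 27 (70.4%), against 54.2% of 9704 genes with a value on these arrays and 32.4% of all 27457 windows. A CCAAT box was present in 10 of 27 (37.0%; 35.7% of genes with a value and 34.3% of all windows), including all 3 Gadd45 genes. A TATA box was present in 3 of 27 (11.1%; 8.12% and 13.1%), namely Bcl2, Faslg and Gadd45g. A p53 half-site was present in 3 (11.1%; 6.04% and 6.56%), namely Cdkn1a, Gadd45a and Cflar, which had differences of -0.42, 0.41 and -0.19. An AP-1 motif was present in 1, Diablo (3.70%; 3.29% and 3.98%).

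The pore-forming effectors of the BCL2 family did not share a direction. Bax, which perforates the outer mitochondrial membrane, was measured by 10 spots per array, with a lowest, median and highest level of 0.392, 0.404 and 0.421 in the control and 0.426, 0.468 and 0.504 in the lesion. Its difference was 0.21 ± 0.04, or 1.16-fold, and no spot overlapped. Bak1, the effector that resides on mitochondria, was at 1.92 and 1.95 in the control and 1.73 and 1.76 in the lesion (-0.15 ± 0.06). Bok, a related effector, was at 8.41 and 8.46 against 7.10 and 7.40 (-0.22 ± 0.06), but its second probe was at 1.23 and 1.25 (0.02 ± 0.09). With spike-in scaling, which moved all genes up alike, Bak1 was at 0.16 and Bok at 0.09. Relative to the median of all genes under each setting, Bak1 lay between -0.22 and -0.03 and Bok between -0.24 and -0.10.

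Among the survival proteins, Mcl1 and Bcl2 had the largest differences, in opposite directions. Mcl1, a short-lived protector, was at 0.547 and 0.596 in the control and 0.634 and 0.694 in the lesion, without overlap (0.22 ± 0.09). Bcl2, the founding survival protein, was at 0.586 and 0.591 against 0.509 and 0.537 (-0.17 ± 0.09, and 0.13 with spike-in scaling). Bcl2l2, which encodes BCL-W, was at 0.542 and 0.501 (-0.11 ± 0.09, and 0.19 with spike-in scaling). Bcl2l1, which encodes BCL-XL, had 4 probes on 3 transcripts. A pair for one transcript were bright, at 6.18 and 6.53 (0.08 ± 0.06) and at 4.54 and 5.06 (0.16 ± 0.08). Those for the other transcripts (-0.02 ± 0.23 and -0.17 ± 0.19) differed by less than their spot errors. The difference of Bax exceeded that of Bcl2 by 0.39 ± 0.10 (0.33 to 0.39 over the alternatives), that of Bcl2l1 by 0.13 ± 0.07 (0.03 to 0.20 over the alternatives) and that of Mcl1 by -0.0008 ± 0.10. The shift of Bax against its partners therefore depended on which partner was set beside it.

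BH3-only genes, the stress sensors of the family, were dim or level. Of 7 members, 5 had a measured value in both libraries, and their differences lay between -0.22 and -0.01, all less than 2 spot errors and all above 0 with spike-in scaling. Bad, which insulin and growth factor signals inactivate, was at 1.09 and 1.07 (-0.02 ± 0.07). Bbc3, which encodes the p53 target PUMA, was at 0.996 and 0.976 (-0.03 ± 0.07). Bmf (-0.01 ± 0.39) and Bik (-0.22 ± 0.27) were dim. Hrk, a BH3-only gene best known in neurons, had spots from 0.0992 to 0.133 in the control and 0.0850 to 0.111 in the lesion, which overlapped (-0.16 ± 0.09); its other probe was at 0.11 ± 0.39. Beside it, 4 neuron markers with a value had a median of -0.52, and their part in the Hrk value was not tested.

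Bid and Bcl2l11 reached the background threshold in the lesion alone. Bid, which caspase-8 cleaves to link the death receptor to mitochondria, had spots at 0.0215 and 0.0251 in the control and 0.0328 and 0.0403 in the lesion. The spots did not overlap, but at this signal the spot error was 0.54, against a measured difference of 0.65, or 1.57-fold. With such an error 1.57-fold is not a lower limit. Bcl2l11, which encodes BIM, was at 0.0177 and 0.0215 with overlapping spots (0.28 ± 0.61). With normexp neither gene had a value.

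Genes of the mitochondrial release and apoptosome step were level or slightly higher. Cycs, which encodes cytochrome c, had spots at 4.65 and 4.96 in the control and 5.37 and 6.07 in the lesion (0.25 ± 0.06), and its other probe, at 2.63 and 3.32, gave 0.34 ± 0.08. Cytochrome c also carries electrons in respiration. Diablo, which encodes the IAP antagonist SMAC, was measured by 10 spots per array, with a median of 2.92 in the control (2.71 to 3.08) and 3.15 in the lesion (2.92 to 3.29). Its spots overlapped, and the difference was 0.11 ± 0.03. Apaf1, the scaffold of the apoptosome, was at 0.404 and 0.429 (0.08 ± 0.09) on its brighter probe and at 0.111 and 0.152 (0.46 ± 0.18) on the other, where the spots did not overlap. Htra2, a mitochondrial protease, was at 2.37 and 2.32 (-0.03 ± 0.06), and Xiap, the direct inhibitor of caspases, at 0.176 and 0.167 (-0.07 ± 0.20); both turned positive with spike-in scaling.

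None of the 7 caspases among the members with a value was 1.5-fold apart on its brightest probe. Of all genes well above background on both arrays, 3.00% were at least 1.5-fold higher and 6.22% lower. With 7 genes, a count of 0 does not set the caspases apart from these shares. The initiator Casp9 was at 0.125 and 0.141 in the control and 0.157 and 0.170 in the lesion (0.29 ± 0.16, and 0.11 with normexp). Its other probe, dim and with 1 spot per array, was at 0.0319 and 0.0479 (0.59 ± 0.70). Casp8, the initiator of the death receptor route, was at 0.153 and 0.162 against 0.131 and 0.151 (-0.16 ± 0.16, and 0.15 with spike-in scaling). Casp6, an effector caspase that cleaves lamins, was at 0.227 and 0.257 (0.18 ± 0.14, and 0.08 with normexp).

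The probes of Casp2 disagreed. Caspase-2 is an initiator that acts after DNA damage and mitotic failure. Its brightest probe was at 1.98 and 2.04 in the control and 2.02 and 2.17 in the lesion, with overlap (0.06 ± 0.06). A second probe, with the same accession, was at 0.171 and 0.185 against 0.112 and 0.125, without overlap, and gave -0.59 ± 0.15. The remaining probe, with 1 spot per array, was at 0.0577 and 0.0442 (-0.38 ± 0.55). The mean over the 3 probes was -0.30, so that the sign of Casp2 depends on the probe.

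Among the inflammatory caspases, caspase-1 processes interleukin-1 beta and cuts gasdermin D. Casp1, the caspase of the inflammasome, was at 0.215 and 0.233 in the control and 0.245 and 0.273 in the lesion, without overlap (0.21 ± 0.14, and 0.11 with normexp). Casp4, which binds bacterial lipopolysaccharide in the cytosol, was at 0.711 and 0.670 with overlapping spots (-0.08 ± 0.09, and 0.22 with spike-in scaling). Casp12, placed at the endoplasmic reticulum, had 10 spots per array with medians of 0.662 and 0.680, which overlapped (0.04 ± 0.04). Beside Casp1, a gene of macrophages, 6 of 7 macrophage markers were higher, where 50.2% of all genes were. The 7 markers had a median of 0.20 and a summed level of 24.0 in the control and 27.1 in the lesion, and none was below background. Among them Cd163 was at 0.65 ± 0.09 and Cd68 at -0.05 ± 0.06. The part of these markers in the Casp1 value was not tested.

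In the death receptor arm, Fas and its ligand were at the dim end. Fas was at 0.0670 and 0.0825 on its brighter probe (0.30 ± 0.37) and at 0.0640 and 0.0794 on the other (0.31 ± 0.26); with normexp its value was 0.0086. Faslg, which cytotoxic lymphocytes express, was measured by 10 spots per array, of which 1 control spot was an outlier. The lowest, median and highest of the others were 0.0154, 0.0208 and 0.0260 in the control and 0.0263, 0.0304 and 0.0334 in the lesion. The used spots did not overlap, 1 of 9 in the control and 10 of 10 in the lesion were well above background, and the bound was 0.56 ± 0.26 (1.47-fold). The outlier spot, at 0.0344, lay above all aneurysm spots, and with it the bound was 0.48; with normexp Faslg had no value. Of 10 T and NK lymphocyte markers 8 had a value, 6 of them higher, where 50.2% of all genes were (median 0.17, or -0.04 with normexp). The summed level of the list was 1.08 in the control and 1.24 in the lesion. The 7 flagged on both arrays, the other being a bound that could only be higher, had a median of 0.12. Among them Cd3g was at 0.69 ± 0.06 and Cd4 at 0.64 ± 0.26, but the cytotoxic granule gene Gzmb at -1.40 ± 0.49; Cd2 and Klrb1 were not well above background. Their part in the Faslg value was not tested.

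The downstream proteins of the receptor showed little. Cflar, which encodes c-FLIP, was at 0.166 and 0.146 on its brighter probe (-0.19 ± 0.16) and at 0.121 and 0.116 on a probe for another transcript (-0.05 ± 0.16), with overlapping spots on both, and it turned positive with spike-in scaling. Fadd read 0.0124 and 0.0120, which is background on both arrays.

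Other genes of the cell death pathways gave the surroundings of these values. Of 18 genes of death receptor and TNF signalling, 13 had a value, and 12 of these were higher, where 50.2% of all genes were, with a median of 0.18 (0.13 with normexp). They included Dapk3, a death-associated kinase (0.45 ± 0.08), the kinase Ripk1 (0.26 ± 0.04) and the TNF receptor gene Tnfrsf1b (0.26 ± 0.11), none of them 2-fold apart. A list of executioner caspases, caspase substrates and other death factors held 10 genes with a value. Of these 10, 4 were higher and 6 lower (median -0.05, and 0.26 with spike-in scaling). In this list the chromatin condensation factor gene Acin1 was at -0.36 ± 0.08 and Lmnb1, which encodes lamin B1, at -0.32 ± 0.06.

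Of 9 inflammasome and pyroptosis genes with a value, 7 were higher, where 50.2% of all genes were. Their median was 0.10, or 0.03 with normexp on processed signals and -0.0058 with normexp on median signals. This count includes bounds from the lesion alone, which could only be higher. The 7 genes flagged on both arrays had a median of 0.08. Pycard, the adaptor that binds caspase-1, was at 0.40 ± 0.08, while Il1b, which encodes interleukin-1 beta, was at -0.29 ± 0.09 and Nlrp1a at 0.25 ± 0.49. The 4 measured genes of the inhibitor of apoptosis family outside the members lay between 0.05 and 0.16 (median 0.08, or -0.04 with normexp). Among them Birc2 was at 0.16 ± 0.09, Birc5 at 0.10 ± 0.18 and Birc6 at 0.06 ± 0.14. Xiap, the member of this family, was at -0.07 ± 0.20. In the necroptosis list Ripk3 was at 0.20 ± 0.04 and Cyld at 0.16 ± 0.16.

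Of 16 other BCL2 family genes and mitochondrial partners, 7 were higher and 9 lower (median -0.05, or 0.25 with spike-in scaling). The 3 largest with a value in both libraries were the co-chaperone gene Bag3 (0.36 ± 0.03), Bcl2a1, a survival gene of leukocytes (0.26 ± 0.24), and Bnip2 (0.22 ± 0.08). All 19 endoplasmic reticulum stress genes had a value, 13 of them higher, where 50.2% of all genes were. The median of this list was 0.09, or -0.03 with normexp on median signals. In it the stress sensor Ern1 was at 0.60 ± 0.54, the chaperone gene Dnajb9 at 0.41 ± 0.14 and Herpud1 at 0.32 ± 0.06. Of 8 kinases downstream of the Gadd45 proteins, 3 were higher and 5 lower (median -0.11, or 0.19 with spike-in scaling), with Mapk9, which encodes JNK2, at -0.69 ± 0.13, Map2k7 at -0.38 ± 0.27 and Mapk11 at -0.24 ± 0.25. By over 2 spot errors, 2 of the 8 kinases were higher and 1 was lower, against 21.0% and 21.8% of all genes.

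**Figure D4:**
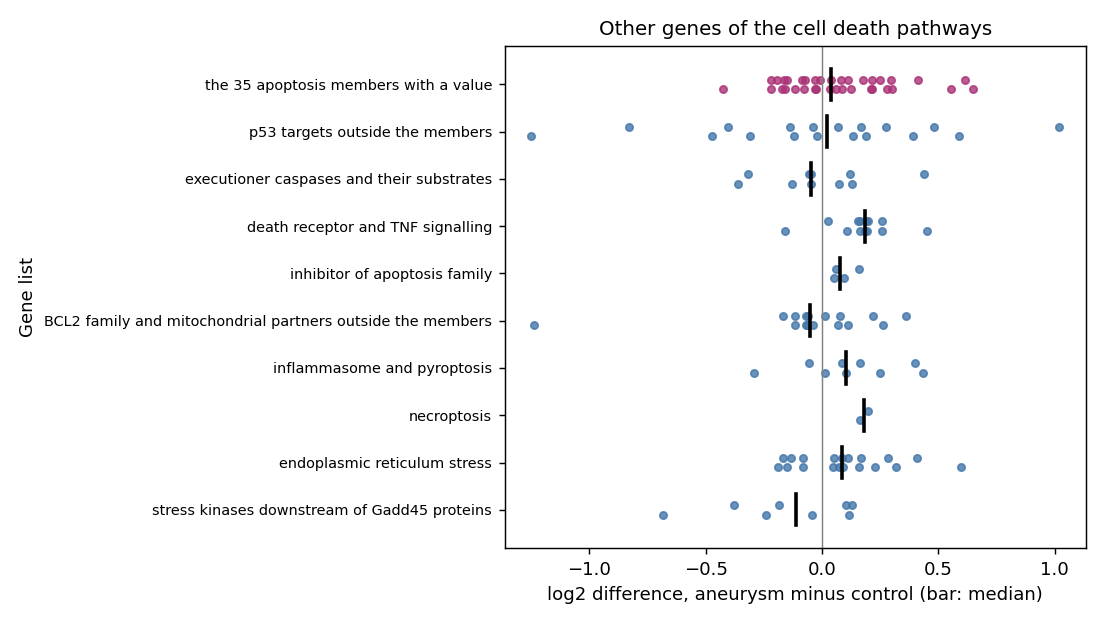
Log2 difference, aneurysm minus control, of each gene with a value (points, bounds included) in the 35 members and 9 other lists of cell death genes, with the median as a bar. The medians lie between -0.11 and 0.18, and the highest is that of death receptor and TNF signalling; with spike-in scaling all of them are above 0.

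Relative to the median of all genes under the same setting, 17 of 35 members lay above it and 9 below it in every setting that gave them a value, and the other 9 lay on both sides. The 17 include Bid, Faslg and Bcl2l11, whose bounds could only be higher. The matching shares over all genes were not computed, so these counts do not show a lean particular to the set. The 9 below were Bak1, Bok, Bcl2, Bik, Hrk, Casp8, Xiap, Cflar and Cdkn1a. There were 10 alternatives for most members and 7 for Bid, Faslg and Bcl2l11. Gadd45g ranged from 0.47 to 0.92, Gadd45a from 0.36 to 0.72 and Cdkn1a from -0.48 to -0.12. Relative to the median of all genes under the same setting these ranges were 0.56 to 0.67, 0.36 to 0.46 and -0.42 to -0.34. Other members moved further on that relative scale: Casp2 from -0.31 to 0.13, Fas from 0.07 to 0.42, Bmf from -0.13 to 0.16 and Casp9 from 0.16 to 0.44.

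**Figure D5:**
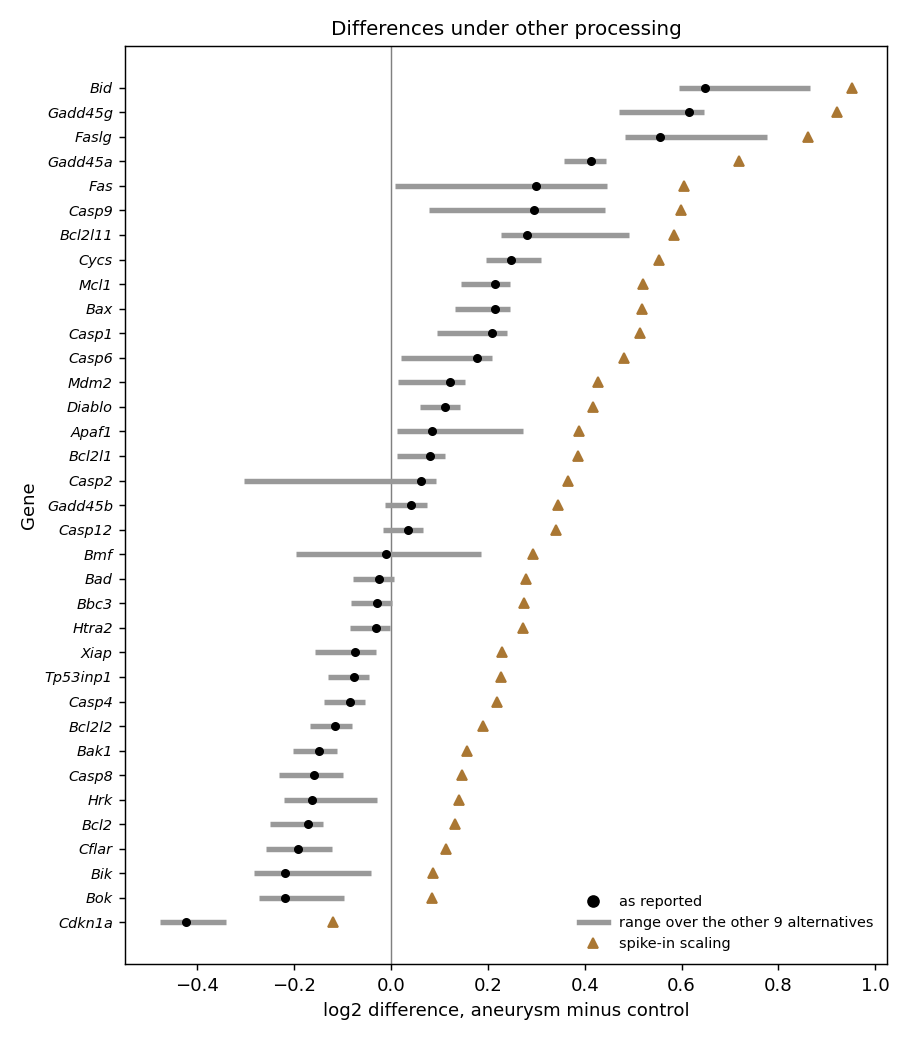
Log2 difference, aneurysm minus control, of the 35 members with a value as reported (black), its range over 9 alternatives (grey bars) and with spike-in scaling (triangles). Spike-in scaling moved all members upward by a like amount, and Cdkn1a alone stayed below 0 there.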

How the data were processed

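RNA was prepared with the RNeasy Fibrous Tissue Kit and labelled with the Low Input Quick Amp kit, per the labels' protocols. The deposited files are output of Feature Extraction 10.10.1.1, and the authors' values used here are processed spot intensities on a linear scale, as the file headers name them. How background was removed is not stated there. The arrays shared a slide and a scan.

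Log2 intensities were centred on the 75th percentile of an array's 58717 spots other than controls. Outlier spots (484 in the control, 573 in the lesion) were dropped and a probe's spots averaged. The flag for signal well above background was set on 74.7% and 76.4% of spots, and 0 spots were saturated. A probe carried the flag unless most of its spots lacked it. RefSeq accessions named 18006 of 30367 probes. A gene was read from its brightest flagged probe, giving 11902 genes. Where one array lacked the flag, its value was raised to the lowest flagged value if below it, giving a bound. Where the flagged array was then not the higher one, the gene was left without a value (81 genes). Spot errors pooled repeat spots in 20 bins of signal.

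The members and lists were chosen with earlier results of these data known. All members are described, and of each other list the 3 largest differences among genes flagged on both arrays are named; markers are named beside members they move with. Of these, 1 gene is not reported here. Gene pairs and promoter motifs were chosen after values were seen. The code (Python 3.11.15, numpy 2.4.6, pandas 2.3.3, limma 3.58.1) was tested on simulated arrays. Alternatives changed the background correction (normexp, offset 50), normalization (quantile), centring (median, detected probes, spike-in), filter, probe rule, outlier spots and fold threshold.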

Additional observations from a re-analysis of the deposited data

How the results depend on the processing

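Of 35 members with a value, 0 were at least 2-fold higher and 0 at least 2-fold lower under the 10 alternatives in processing. As reported, 0.882% of all genes were 2-fold higher and 3.91% lower, and with spike-in scaling 310 and 333 of 11959 were. At a threshold of 1.5-fold, 2 members were higher, against 4.25% of all genes. That count was 0 with either normexp, 1 with centring on detected probes or with only genes flagged on both arrays, 3 with median centring and 7 with spike-in scaling. The shares of all genes at 1.5-fold were not computed for the normexp, centring and spike-in settings. Spike-in scaling moved all genes up, so its count of 7 cannot be read as a result about the members. The number of members above 0 was 19 and rose to 34 with spike-in scaling, where the median over the members rose from 0.04 to 0.35 and the median over all genes to 0.30. Under the other alternatives the median over the members lay between -0.01 and 0.07. Signs changed for 2 members with quantile normalization (Bmf and Casp12), 3 with median centring (Bad, Bbc3 and Bmf), 2 with the 75th percentile over detected probes (Casp12 and Gadd45b) and 1 with the mean over probes (Casp2). Normexp on the processed signal and, added after the data had been seen, on the median and background signals gave values for 32 members and changed no sign. Over all genes, the share of higher among 2-fold differences was 18.4%, but 48.2% with spike-in scaling, 28.9% with quantile normalization and 6.99% with normexp. The planned normexp on mean signals ran on the processed signal, as the plan allowed. No paired analysis was possible because each group has 1 array. Dim members such as Bid, Bcl2l11, Fas and Faslg are limited by signal over background, with spot errors of 0.26 to 0.61.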
